A study of Mus musculus with 6 samples.

Results

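Ribosome biogenesis genes and the Myc gene were followed in 6 gene expression arrays of sorted mouse bone marrow progenitors. The members were 46 gene symbols, Myc and 45 genes of ribosomal RNA synthesis, processing and subunit assembly, and every probe set annotated to exactly 1 of these symbols was taken. This found 45 of the 46 genes, on 49 of the 34760 probe sets of the array, and Noc2l was not analysed here. Where a gene had more than 1 probe set, the brightest stood for it, which gave 45 members among 19937 genes tested.

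The cells were pre-granulocyte-macrophage progenitors (PreGMs), a myeloid progenitor that comes before the granulocyte-macrophage progenitor, taken from female C57BL/6 mice. The genotype label was Cebpa flox/flox for 3 arrays and Cebpa flox/flox;Mx1Cre for the other 3, each group being 3 mice by the design text. The study asked how the transcriptome of these cells changes when Cebpa, which encodes the myeloid transcription factor C/EBPα, is deleted. Both groups carry loxP-flanked Cebpa alleles and both had been injected with pIC (polyinosinic-polycytidylic acid) 18 days before the marrow was taken; their ages were not in the labels used here. In the Mx1Cre mice, Cre recombinase is under the interferon-responsive Mx1 promoter, which pIC switches on in many cell types and not in PreGMs alone. The flox/flox mice lack Cre, so the presence of Cre and the loss of Cebpa cannot be told apart. Cells were enriched for Kit, then sorted as negative for lineage markers, Sca1, CD150, CD41, FcγRII and endoglin and positive for Kit.

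A ribosome is built in the nucleolus. RNA polymerase I transcribes a long precursor RNA, small nucleolar ribonucleoproteins (snoRNPs) guide its chemical modification, and 2 sets of assembly factors fold and cut it into the small and the large subunit. The transcription factor Myc, which pairs with Max and binds the E-box sequence CACGTG, is known as an activator of many of these genes, and growing haematopoietic progenitors make ribosomes at a high rate.

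Cebpa went against the genotype labels, so groups are called by their labels throughout. Its log2 level was 6.93, 6.71 and 6.85 in the arrays labelled flox/flox and 8.71, 9.31 and 8.98 in those labelled Mx1Cre, 4.50-fold higher in the latter (limma adjusted p = 2.65e-05), and the position of its probes was not examined. Directions are given by label, and exchanged labels would turn them all. Differences are the mean log2 value of the arrays labelled Mx1Cre minus that of the arrays labelled flox/flox, given with limma's standard error (SE), and a gene passed at an adjusted p under 0.05. Kit, the antigen selected in the sort, read 10.36 to 10.53 and 10.52 to 10.69. Of 4 measured genes of antigens the sort excludes, Fcgr2b passed as higher (0.43 ± 0.10, SE, limma adjusted p = 0.041) and 3 did not pass. Of 4 stem cell markers, Hlf passed, 1.89-fold higher (limma adjusted p = 0.00469), with a list median of 0.37. Several lists of lineage markers, myeloid ones among them, differed by label. All 6 monocyte markers and 7 of 9 granulocyte markers passed, higher in the arrays labelled Mx1Cre (all genes: 2.63%). Their mean levels were 6.22 to 6.36 against 8.55 to 8.82 and 6.71 to 6.97 against 8.23 to 8.76. Of the other markers, 2 of 6 for T and NK cells and 1 of 5 erythroid markers passed, each lower (all genes: 2.28%). Of the megakaryocyte and B cell markers, 0 of 4 and 0 of 4 passed. At an unadjusted p under 0.05, 4 T and NK cell, 2 erythroid, 2 megakaryocyte and 2 B cell markers were lower. In these lists 0 markers were higher, where 1618 of all 19937 genes were lower and 1658 higher. Mast cell and basophil markers split, 2 higher and 2 lower. No value is at 0 on this scale and no detection call was used. The part of cell composition in the results below was not tested, and in bulk samples fewer cells of a type and less RNA per cell cannot be told apart.

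The E-box is shown here because Myc, which binds it, is a member. The part of E-boxes in the members' differences was not tested. RefSeq promoter windows (GRCm38.p6, 250 bases before to 50 after a gene start) were found for 40 of the 45 members, and 10 of these 40 genes (25%) held CACGTG, which reads the same on both strands. The share was 9.5% of the 15613 tested genes with a window and 8.09% of all 27025 genes with one. The letters were in 2 of the 7 windowed members that passed the test, Utp20 and Mybbp1a. They were in 8 of the 33 that did not pass. Each site is shown with neighbouring bases, 30 in all, 5′ to 3′ on the gene's strand, with the E-box in capitals. Utp20 and Mybbp1a come first, and Rrn3 holds a pair of sites.
Utp20: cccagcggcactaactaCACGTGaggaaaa
Mybbp1a: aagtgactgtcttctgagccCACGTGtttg
Nop2: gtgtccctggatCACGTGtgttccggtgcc
Grwd1: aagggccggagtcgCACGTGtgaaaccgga
Imp4: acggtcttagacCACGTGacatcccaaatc
Tsr1: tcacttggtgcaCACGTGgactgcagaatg
Wdr43: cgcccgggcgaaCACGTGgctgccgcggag
Utp18: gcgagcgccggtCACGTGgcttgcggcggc
Pes1: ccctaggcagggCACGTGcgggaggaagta
Rrn3, distal: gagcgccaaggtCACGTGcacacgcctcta
Rrn3, proximal: ttacgctctgctCACGTGggccgcgtcccg

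The 30 bases shown for Utp20 lie at chr10:88826765-88826794 (minus strand), with the E-box itself beginning at base 38 after the start. Those for Mybbp1a lie at chr11:72441347-72441376 (plus strand), with the E-box beginning at base 41 after it. Both E-boxes are thus inside the transcribed part. The E-boxes of Grwd1, Tsr1, Wdr43 and Pes1, which did not pass, also begin after the start, at bases 35, 25, 18 and 3. The E-boxes of Nop2, Imp4 and Utp18 begin 60, 121 and 20 bases before the start. The stretches of Rrn3 lie at chr16:13780472-13780501 and chr16:13780639-13780668 (plus strand), and their E-boxes begin 215 and 48 bases before the start. The median difference was 0.21 log2 units for the 10 members with the letters and 0.18 for the 30 without them. A match is only a run of letters, and binding was not measured. Members' windows had a median G+C content of 59.5%, against 57.3% for tested genes and 52.7% for all. Other letters were CCGGAAG, the core that ETS factors bind, in 15 of 40 members (37.5%, against 13.6% of tested genes), and TATAAA in 2 of 40 (5.0%, against 13.6%), each on either strand.

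The promoters of Polr1a and Polr1b are also given, since both genes passed under all 13 alternatives below. Neither window holds any of these 3 runs of letters. The 250 bases before each start are in lower case throughout because they hold no match to capitalise.
Polr1a, chr6:71908803-71909052, plus strand: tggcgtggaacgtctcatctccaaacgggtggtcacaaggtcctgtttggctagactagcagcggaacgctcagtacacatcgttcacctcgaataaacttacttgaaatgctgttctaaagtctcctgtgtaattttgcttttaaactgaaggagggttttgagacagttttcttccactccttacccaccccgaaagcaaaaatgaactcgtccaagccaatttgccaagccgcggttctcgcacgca
Polr1b, chr2:129100746-129100995, plus strand: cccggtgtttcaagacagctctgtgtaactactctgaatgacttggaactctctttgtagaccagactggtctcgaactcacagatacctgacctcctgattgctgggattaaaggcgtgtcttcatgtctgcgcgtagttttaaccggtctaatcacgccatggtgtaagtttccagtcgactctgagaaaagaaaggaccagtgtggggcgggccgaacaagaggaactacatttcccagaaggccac
Their G+C content was 47.6% and 49.6%.

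Most ribosome biogenesis genes read slightly higher in the arrays labelled Mx1Cre, and a minority passed the test. Of 45 members 8 rose, 0 fell and 37 did not pass (limma, adjusted over all 19937 genes). At an unadjusted p under 0.05, 17 were higher and 0 lower, where 1658 and 1618 of all 19937 genes were. Of all genes, 2.63% passed as higher and 2.28% as lower (4.91% in all). Those that rose were Polr1a, Utp20, Polr1b, Nolc1, Mybbp1a, Rrp1b, Heatr1 and Myc, by 1.31-fold to 1.56-fold. The difference was above 0 for 43 of 45 members, as it was for 46.6% of all genes, and the exceptions, Imp3 and Ddx10, did not pass. All 3 arrays labelled Mx1Cre read above all 3 labelled flox/flox for 25 of 45 members, where 10.5% of all genes did so, and the reverse held for 0 of 45 against 11.0% of all genes. The members' median difference was 0.20 log2 units, or 1.15-fold, beside -0.01 over all genes. The members were chosen with earlier results of these data known, so these counts and shares describe the list and do not test it.

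Polr1a, Polr1b and Utp20 passed under all 13 alternatives, which included leaving out each array and fitting all 34760 probe sets. Leaving out flox/flox replicate 1 or 2, the number of members that rose was 5 or 4. Leaving out Mx1Cre replicate 1, 2 or 3, it was 5, 3 or 3, and with all probe sets 3, while these 6 fits called 541, 785, 751, 636, 538 and 244 of all genes in place of 979.

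**Figure D1:**
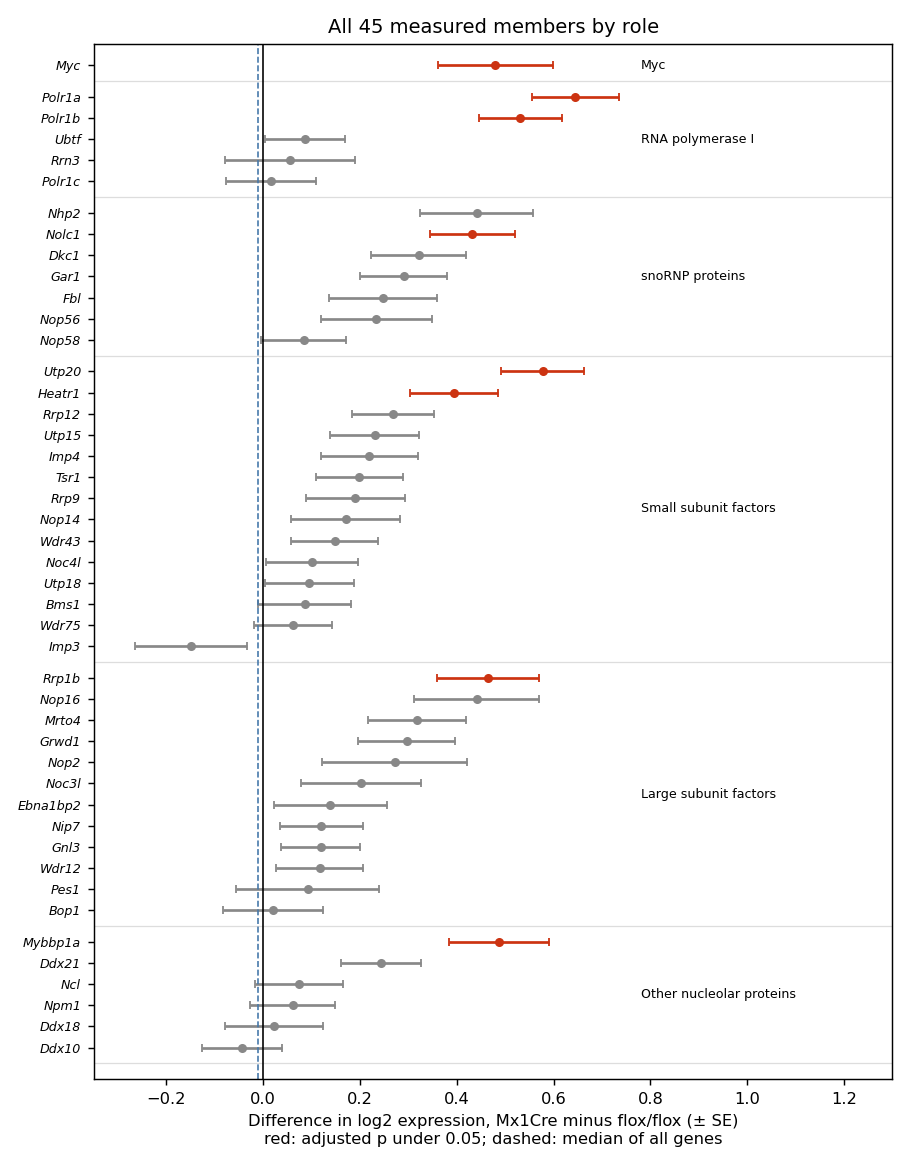
Difference in log2 expression, Mx1Cre minus flox/flox, for each of the 45 measured members, grouped by role; bars are limma's SE, red marks the 8 members with an adjusted p under 0.05 and the dashed line the median of all genes (-0.01). The points lie right of 0 for 43 members, and Polr1a has the largest difference at 0.64.

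Myc, the regulator of the list, was 1.39-fold higher in the arrays labelled Mx1Cre, close to the threshold. Its log2 level was 11.44, 10.97 and 11.25 in flox/flox replicates 1, 2 and 3 and 11.65, 11.74 and 11.70 in the Mx1Cre replicates. The groups did not overlap, and the flox/flox arrays spread over 0.47 log2 units against 0.09 for the others, with replicate 2 the lowest. The difference was 0.48 ± 0.12 log2 units (SE, limma adjusted p = 0.0487). It passed in 4 of 13 alternatives, over which the adjusted p ran from 0.0173 to 0.206. Of the arrays, only leaving out flox/flox replicate 1 kept it past the threshold (0.0268), and without flox/flox replicate 2 the difference was 0.35 (0.117).

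The network around Myc was read from 12 further genes, of which 0 rose and 1 fell (all genes: 2.63% and 2.28%). The gene that fell was Mycn, which encodes the N-Myc paralogue active in early progenitors. Its level was 8.08, 7.86 and 7.57 in the flox/flox arrays and 7.24, 6.77 and 7.15 in the Mx1Cre arrays, so the arrays did not overlap and moved the opposite way to those of Myc. The difference was -0.78 ± 0.15 log2 units (SE), 1.72-fold lower (limma adjusted p = 0.0166; 0.0105 to 0.134 over the alternatives). Leaving out flox/flox replicate 1 or 2 gave 0.0630 and 0.0529. Mycl, the remaining family member, read 6.44 to 6.53 and 6.41 to 6.55.

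Max, the partner of all Myc proteins, did not pass at 0.16 ± 0.092 (SE). Neither did the MXD genes, which encode repressors that compete for Max. Among them Mxd4 and Mxd1 had differences of -0.35 and -0.20 with no overlap between groups, and Mxi1 and Mxd3 of -0.019 and 0.037 with overlap. The further repressors Mnt and Mga stood at -0.038 and -0.0082. The related Mlx and its partners Mlxip and Mlxipl, which respond to glucose, stood at -0.012, 0.16 and 0.027. At an unadjusted p under 0.05, 0 of these 12 genes were higher and 3 lower, where 1658 and 1618 of all 19937 genes were. The 3 were Mycn, Mxd4 and Mxd1.

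**Figure D2:**
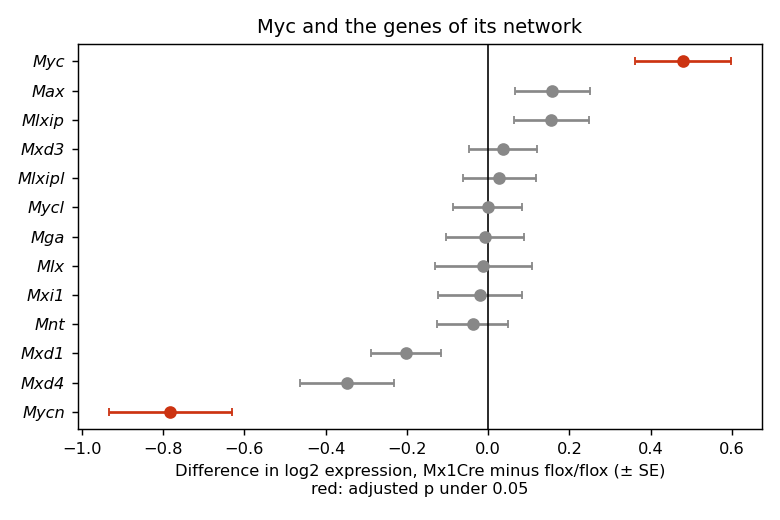
Difference in log2 expression, Mx1Cre minus flox/flox (bars, limma's SE), for Myc and 12 genes of its network; red marks an adjusted p under 0.05. Myc (0.48) and Mycn (-0.78) lie at opposite ends and are the 2 that passed.

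In the RNA polymerase I group, 2 of 5 genes rose (all genes: 2.63%), the genes of the enzyme's catalytic core. Polr1a encodes its largest subunit and read 7.999, 7.967 and 8.167 in the flox/flox arrays and 8.682, 8.660 and 8.723 in the Mx1Cre arrays. The arrays differed by 0.64 ± 0.09 log2 units (SE), or 1.56-fold (limma adjusted p = 0.00273, 0.00201 to 0.0341 over the alternatives). The 3 Mx1Cre arrays lay within 0.06 of each other and the lowest was 0.49 above the highest flox/flox array.

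Polr1b, the second largest subunit, moved alongside. It read 7.63, 7.55 and 7.71 against 8.16, 8.13 and 8.19, a difference of 0.53 ± 0.086 (SE), or 1.45-fold (limma adjusted p = 0.0064, 0.00437 to 0.0482 over the alternatives). Here too flox/flox replicate 3 was the highest of its group and the groups were well apart.

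The other 3 genes did not pass. Polr1c, a subunit that RNA polymerase I shares with RNA polymerase III, read 9.87, 10.08 and 10.06 and 10.01, 10.08 and 9.96, overlapping between groups, with a difference of 0.016 ± 0.093 (SE). Rrn3, the initiation factor TIF-IA that makes the polymerase competent to start, differed by 0.055 ± 0.13 and spread widely in the flox/flox arrays, from 9.69 to 10.27. Ubtf, the factor UBF that holds ribosomal DNA open, differed by 0.086 ± 0.083, with no overlap but within a narrow span of 9.48 to 9.64.

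Further RNA polymerase I and III genes, 26 measured of 28 listed, had 0 passing. At an unadjusted p under 0.05, 1 was higher and 0 lower (all genes: 1658 and 1618 of 19937). The median difference of the 26 was 0.027, near that of all genes.

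The snoRNP group held 7 genes, of which 1 rose (all genes: 2.63%). Of the 7, 6 did not overlap between groups, each higher (all genes: 10.5%). Nolc1, the chaperone Nopp140 that binds both classes of snoRNP, read 8.93, 9.06 and 9.08 in the flox/flox arrays and 9.38, 9.49 and 9.49 in the Mx1Cre arrays. Its difference was 0.43 ± 0.088 log2 units (SE), or 1.35-fold (limma adjusted p = 0.0214, 0.0102 to 0.0985 over the alternatives). Leaving out flox/flox replicate 1 or 3 gave 0.0855 and 0.0568, and leaving out Mx1Cre replicate 2 or 3 gave 0.0678 and 0.0925.

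The genes of 3 core proteins of the H/ACA class, which carries out pseudouridylation, are members, and each read higher in every Mx1Cre array but did not pass. Nop10, another core protein of the class and no member, overlapped between groups (0.14 ± 0.088, SE). Nhp2 had the largest difference among the snoRNP members, 9.25, 9.44 and 9.65 against 9.74, 9.95 and 9.96, which is 0.44 ± 0.12 (SE, limma adjusted p = 0.0644). It passed in 5 of 13 alternatives, with a range of 0.0282 to 0.232. Dkc1, the pseudouridine synthase dyskerin, differed by 0.32 ± 0.097 and Gar1 by 0.29 ± 0.091 (adjusted p 0.105 and 0.116, limma).

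Members of the C/D class, which carries out ribose methylation, had smaller differences than the H/ACA members on the brightest probe sets. The classes were not compared by a test, and Nop10 of the H/ACA class (0.14) lay below Fbl and Nop56. Fbl, the methyltransferase fibrillarin, differed by 0.25 ± 0.11 on its brighter probe set and by 0.29 on the dimmer one. Mx1Cre replicate 3 read 12.00 on the brighter and 7.20 on the dimmer, and the position of these probe sets was not examined. Nop56 differed by 0.23 ± 0.11. Without flox/flox replicate 1 the difference of Fbl was 0.13, and without flox/flox replicate 2 that of Nop56 was 0.10. Its paralogue Nop58 read 11.31, 11.36 and 11.38 and 11.49, 11.33 and 11.49, overlapping because Mx1Cre replicate 2 lay inside the flox/flox range, with a difference of 0.084 ± 0.088.

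Small subunit assembly was covered by 14 genes, of which 2 rose (all genes: 2.63%) and 12 did not pass. Of the 14, 7 did not overlap, each higher (all genes: 10.5%). Utp20 is a very large scaffold protein of the small subunit processome, the particle that assembles on the new precursor RNA. It read 8.20, 8.18 and 8.33 in the flox/flox arrays and 8.81, 8.85 and 8.78 in the Mx1Cre arrays. The difference was 0.58 ± 0.086 (SE), or 1.49-fold (limma adjusted p = 0.00389, 0.00277 to 0.0389 over the alternatives).

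Heatr1, the counterpart of yeast Utp10 and also a large repeat protein of the processome, read 9.81, 9.60 and 9.71 against 10.10, 10.14 and 10.06. No array overlapped, and the difference was 0.39 ± 0.09 (SE), or 1.31-fold (limma adjusted p = 0.0352, 0.0176 to 0.135 over the alternatives). Among the arrays it passed only when flox/flox replicate 1 was the one left out (0.0493), with 0.0706 to 0.108 for the other 5.

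The remaining UTP proteins were nearer to 0. Utp15 and Utp18 differed by 0.23 and 0.095, and Wdr43 and Wdr75, which sit with Utp15 and Heatr1 in the t-UTP subcomplex, by 0.15 and 0.061. The U3 snoRNP proteins split. Imp4 and Rrp9 differed by 0.22 and 0.19. Imp3, by contrast, had the lowest difference of all members, reading 11.07, 11.40 and 11.20 against 10.90, 11.21 and 11.11, or -0.15 ± 0.12 (SE, limma adjusted p = 0.624), with overlap.

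Of the other factors, Rrp12, which works in export of the particle, differed by 0.27, and Tsr1, a late-acting factor, by 0.20. Both were higher in every Mx1Cre array. Nop14 and its partner Noc4l differed by 0.17 and 0.10, and the GTPase Bms1 by 0.086, each with overlap.

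Large subunit assembly was covered by 12 genes, of which 1 rose (all genes: 2.63%). Of the 12, 6 did not overlap, each higher (all genes: 10.5%). Rrp1b, a nucleolar protein of large subunit maturation, read 8.13, 7.84 and 8.17 against 8.59, 8.44 and 8.50. The difference was 0.46 ± 0.11 (SE), or 1.38-fold (limma adjusted p = 0.0347, 0.0260 to 0.158 over the alternatives). It passed in 0 of the 6 fits that left out 1 array (0.0577 to 0.108).

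The next largest differences were those of Nop16, Mrto4, Grwd1 and Nop2. Nop16, a nucleolar protein named as a Myc target, read 9.51, 9.64 and 10.02 against 10.09, 10.17 and 10.24, or 0.44 ± 0.13 (SE, limma adjusted p = 0.0923), with flox/flox replicate 3 close to the Mx1Cre arrays. Mrto4, a relative of the ribosomal stalk protein P0, differed by 0.32 on its brighter probe set and by 0.013 on the other. Grwd1, a histone-binding WD40 protein of the nucleolus, differed by 0.30. Nop2, an RNA methyltransferase, differed by 0.27 with a wide flox/flox spread, from 7.70 to 8.38.

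The 3 proteins of the PeBoW complex, which acts in cutting the precursor of the large subunit RNA, did not pass. Pes1 and Wdr12 differed by 0.092 ± 0.15 and 0.12 ± 0.09 (SE). Bop1 had the smallest difference of this group, reading 7.29, 7.03 and 7.01 against 7.13, 7.22 and 7.05, or 0.02 ± 0.10. Their groups overlapped. Gnl3, the progenitor GTPase nucleostemin, and Nip7 differed by 0.12 and 0.12 without overlap, and Ebna1bp2 and Noc3l by 0.14 and 0.20 with overlap.

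Of 6 further nucleolar proteins 1 rose (all genes: 2.63%). Mybbp1a, a Myb-binding protein of the nucleolus, read 8.60, 8.46 and 8.73 in the flox/flox arrays and 8.95, 9.14 and 9.16 in the Mx1Cre arrays. Its difference was 0.49 ± 0.10 (SE), or 1.40-fold (limma adjusted p = 0.0259, 0.0120 to 0.134 over the alternatives). Leaving out flox/flox replicate 1 or 2 gave 0.0821 and 0.0831, and leaving out Mx1Cre replicate 2 or 3 gave 0.0805 and 0.110.

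The abundant nucleolar proteins did not pass. Ncl (nucleolin) and Npm1 (nucleophosmin, which has processed copies in the genome whose RNA could add to its signal) differed by 0.074 ± 0.091 and 0.061 ± 0.088 (SE), with overlap. Of the RNA helicases, Ddx21, which couples polymerase activity to processing, read 9.81, 9.70 and 9.75 against 10.00, 9.97 and 10.02, a difference of 0.24 ± 0.083 without overlap (limma adjusted p = 0.155). Ddx18 differed by 0.022 on its brighter probe set and 0.12 on the other. Ddx10 was the second member below 0, reading 10.49, 10.59 and 10.57 against 10.50, 10.49 and 10.52, or -0.044 ± 0.083, with overlap.

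**Figure D3:**
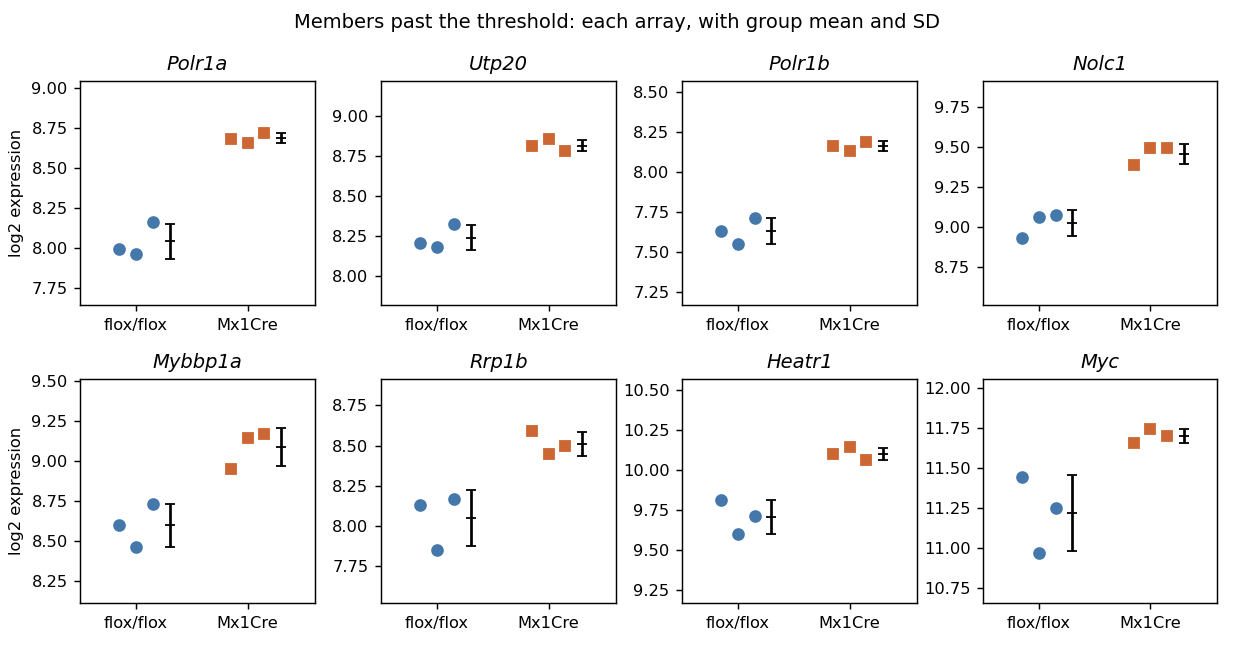
Log2 expression of the 8 members past the threshold, by array (blue circles, flox/flox; orange squares, Mx1Cre), with the group mean and SD in black; every panel spans 1.4 log2 units. The 3 Mx1Cre arrays lie above the 3 flox/flox arrays in each panel, and Myc spreads most in flox/flox (SD 0.24).

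Beyond the members, 91 other subunit assembly factors were measured of 93 listed. Of the 91, 3 rose (all genes: 2.63%, a similar share), 0 fell (all genes: 2.28%) and 88 did not pass. Their median difference was 0.10, between the members' 0.20 and the -0.01 of all genes. Mdn1, a giant ATPase that remodels the pre-large subunit, rose 1.52-fold (0.61 ± 0.12, SE, limma adjusted p = 0.017), Sdad1, another large subunit factor, 1.33-fold and Tcof1, the nucleolar protein treacle, 1.27-fold (adjusted p 0.0263 and 0.0471, limma). At an unadjusted p under 0.05, 17 of the 91 were higher and 1 lower, where 1658 and 1618 of all 19937 genes were. Mdn1, Sdad1 and Tcof1 passed in 10, 7 and 3 of 13 alternatives, and in 4, 1 and 0 of the 6 fits that left out 1 array. Those fits called 0 to 2 of the 91 genes (0 without Mx1Cre replicate 3, 2 without flox/flox replicate 3 and 1 without any other array), and fitting all probe sets called 0.

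Of 28 metabolic genes often counted as Myc targets, 8 rose (all genes: 2.63%), 0 fell and 20 did not pass, with a median of 0.23. At an unadjusted p under 0.05, 15 were higher and 0 lower (all genes: 1658 and 1618 of 19937). The difference was below 0 for 5 of the 28, Ldha, Eif4e, Paics, Tfrc and Set. Leaving out flox/flox replicate 1 brought the number that rose to 3, leaving out its replicate 3, or Mx1Cre replicate 2 or 3, brought it to 4, and fitting all probe sets brought it to 1. Shmt2, the mitochondrial serine hydroxymethyltransferase, rose 1.84-fold, reading 8.48, 8.11 and 8.55 against 9.20, 9.23 and 9.34 (limma adjusted p = 0.00266). Slc7a5, a transporter of large neutral amino acids, rose 1.65-fold and Cad, the first enzyme of pyrimidine synthesis, 1.56-fold (adjusted p 0.00403 and 0.00762, limma).

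**Figure D4:**
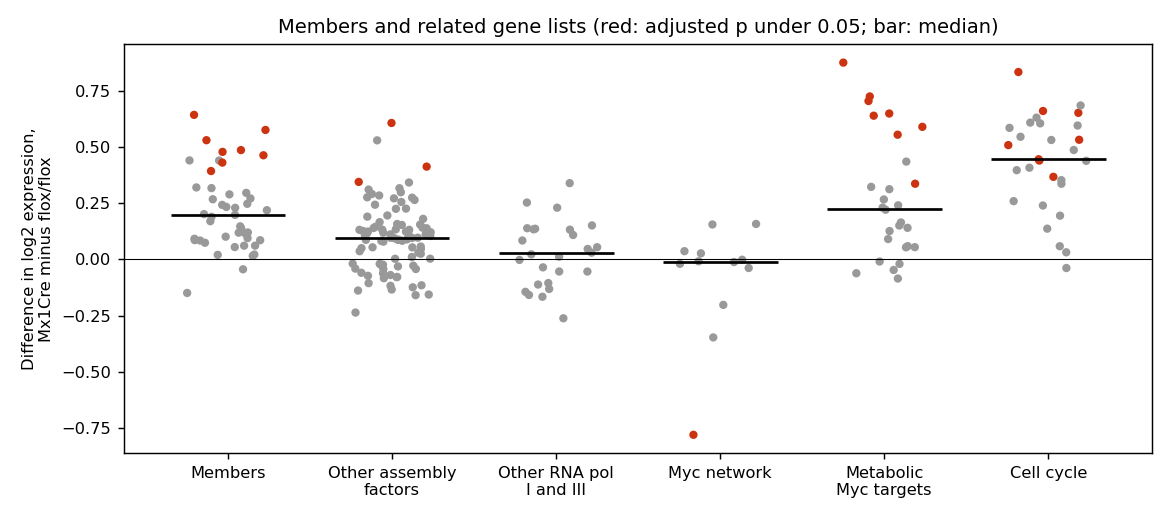
Difference in log2 expression, Mx1Cre minus flox/flox, for the 45 members and the genes of 5 related lists; each point is a gene, red marks an adjusted p under 0.05 and the bar is the median. The medians run from -0.01 for the Myc network to 0.45 for cell cycle genes, with the members at 0.20.

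Of 29 cell cycle genes measured, 8 rose (all genes: 2.63%), 0 fell and 21 did not pass, with a median of 0.45. At an unadjusted p under 0.05, 22 were higher and 0 lower (all genes: 1658 and 1618 of 19937). Among those that rose were Tk1, Aurkb and Rrm1 at 1.58-fold, 1.78-fold and 1.42-fold, which passed in 6, 3 and 1 of the 6 fits that left out 1 array. The number that rose was 2 and 3 without flox/flox replicates 1 and 3, 2, 1 and 1 without Mx1Cre replicates 1, 2 and 3, and 1 with all probe sets. Their mean log2 level was 8.67, 9.17 and 9.14 in flox/flox replicates 1, 2 and 3 and 9.41, 9.45 and 9.41 in the Mx1Cre arrays, so flox/flox replicate 1 stood below the other 5. The part of proliferation in the members' differences was not tested.

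Averaged over all 45 members, each centred on its own mean, flox/flox replicates 1, 2 and 3 deviated by -0.16, -0.14 and -0.04 log2 units and the Mx1Cre replicates by 0.06, 0.15 and 0.12. The groups did not overlap, and flox/flox replicate 3 was the nearest to the Mx1Cre arrays. The same split held in each of the 6 role groups, with Mx1Cre above flox/flox. The lowest array was flox/flox replicate 2 for Myc, the RNA polymerase I group and the other nucleolar proteins (-0.49, -0.20 and -0.098). It was flox/flox replicate 1 for the snoRNP, small subunit and large subunit groups (-0.24, -0.14 and -0.17). The range among the flox/flox arrays was wider than among the Mx1Cre arrays for 32 of 45 members. This count was not made over all genes, so it cannot be called a trait of the members.

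**Figure D5:**
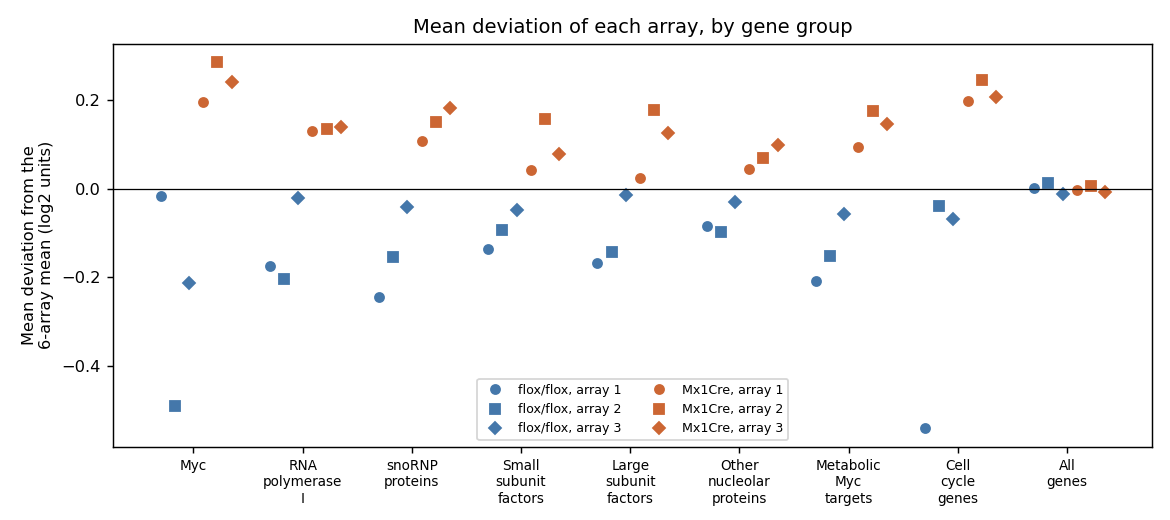
Mean deviation of each array from the 6-array mean, in log2 units, for the members by role, metabolic Myc targets, cell cycle genes and all genes (blue, flox/flox; orange, Mx1Cre; shape, replicate number). The Mx1Cre arrays lie above 0 and the flox/flox arrays below it in every group but all genes, and flox/flox replicate 1 reaches -0.54 for cell cycle genes.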

How the data were processed

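The authors deposited log2 expression values per probe set, made with RMA and affy per the submitters' processing notes (versions and chip definition not given in the sources used here). Per the labels' protocols, 20 ng of total RNA was amplified before labelling. RMA pulls dim probe sets towards a floor, which understates their folds, and the number of arrays limits the precision. Probe sets with 1 symbol in the platform annotation (21640 of 34760) gave 19937 genes, the brightest probe set standing for a gene.

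All 6 arrays were fitted with limma 3.58.1 in R 4.3.3 (lmFit, eBayes) and adjusted by Benjamini-Hochberg over all genes. Over 20 sets of simulated arrays of 19937 genes, the test recovered on average 39.3% and 41.7% of genes changed by 0.5 up and down. It recovered 88.8% of those changed by 1 (50 genes each), with 2 to 9 false calls. On average 139.6 genes passed in a simulated set, where 979 passed in the real data, so recovery in the real data may differ. Members and lists were chosen with earlier results of these data known. Every measured member is named, values per array being given for those called and for the extremes of each role group. Of the related lists, up to 3 called genes each way by smallest p are named, and all Myc network genes. Polr1f, Polr1g and Polr1h were read under their older symbols. The replicate numbers were not used as pairs: deviations of same-numbered arrays correlated at 0.19, 0.05 and 0.17.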

Additional observations from a re-analysis of the deposited data

How the results depend on the processing

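Each result was recomputed with the replicate number as a block, without each array, with median centring, with cyclic loess, without genes below the lower quartile of levels, with the mean of a gene's probe sets, with an intensity trend and robust prior, over all probe sets and at a threshold of 0.1. Members called higher numbered 7 to 10 under the alternatives that kept all arrays and gene rows, 3 with all probe sets and 3 to 6 without 1 array, and members called lower 0 in all of them. Fewer arrays, or more rows to adjust over, lower the power. With all probe sets 244 of all genes and 2 of the 186 related genes passed, and without 1 array 538 to 785 and 6 to 14, in place of 979 and 20. The members' median difference ran from 0.17 to 0.25 without 1 array. Myc's difference of 0.48 had an adjusted p of 0.0560 with the replicate block, 0.0581 with median centring (0.48), 0.0525 with cyclic loess (0.48) and 0.206 with all probe sets, and its difference ran from 0.35 to 0.59 without 1 array. The block otherwise moved no count by over 1.5 times (9 members, 1089 genes). The difference of Cebpa kept its sign and passed throughout (2.02 to 2.32 without 1 array). Among single genes that did not pass, 9 differences turned sign when 1 array was left out, and the range over those fits was -0.052 to 0.054 for Polr1c, -0.043 to 0.21 for Pes1, -0.081 to 0.21 for Rrn3, -0.030 to 0.11 for Bop1 and -0.063 to 0.10 for Ddx18. The cause was not tested.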
